A study of Mus musculus with 4 samples.

Results

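The genes described here belong to 2 linked protease systems, plasminogen activation and blood coagulation. The set holds 9 genes: Plau, Plat, Plaur, Serpinb2, Thbd, F3, F7, F10 and F13a1. It was chosen by name, and it was chosen because Plau had a high ratio of knockout over wild type in both states, so the ratios of these genes are given as a description and support nothing. All 9 of 9 had a row in both deposited tables, which together list 15881 genes.

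The cells were bone-marrow-derived dendritic cells of C57BL/6 mice aged 8 weeks. The knockout (KO) cells carried the genotype GOLPH2-/- and the others were wild type (WT); GOLPH2 is a Golgi membrane protein encoded by Golm1. The 4 groups were KO-I+L and WT-I+L, primed with IFN-gamma for 16 h and given LPS for 4 h, and KO-con and WT-con without stimulation. Each group was 1 library, so no difference has a replicate check. None of the sources used here gives the culture medium, the number of mice behind a library or the deleted stretch of Golm1.

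In the fibrinolytic system, the urokinase-type activator (Plau) and the tissue-type activator (Plat) cut plasminogen to plasmin, which dissolves fibrin and degrades matrix. The urokinase receptor (Plaur) holds urokinase at the cell surface, and the serpin PAI-2 (Serpinb2) inhibits both activators. Coagulation starts when tissue factor (F3) binds factor VII (F7) and activates factor X (F10); factor XIII (F13a1 encodes its catalytic subunit) cross-links fibrin, and thrombomodulin (Thbd) turns thrombin towards the anticoagulant protein C. Monocytes, macrophages and dendritic cells make several of these proteins, and tissue factor and PAI-2 are known for their induction by LPS in monocytes and macrophages.

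The deposited tables give only a log2 ratio and a −log10 p for each gene. Together they fixed the reads of each library, since each ratio was that of the unscaled reads. The library totals derived in this way were 36.8 M reads for KO-I+L, 37.7 M for WT-I+L, 39.6 M for KO-con and 34.6 M for WT-con. Levels are given as RPM, the reads of a gene scaled to these totals. Ratios are log2 of KO over WT after scaling by the totals, and an error written with ± is the counting standard error (SE), which reflects how many reads were sampled and nothing of the variation between cultures. A gene is said to be past the adjusted p where the Benjamini-Hochberg adjusted value of the authors' p over the whole table was under 0.001. Such a p compares 2 libraries, not 2 conditions. In the KO-I+L library Golm1 had 5.17 RPM against 20.7 RPM in WT-I+L (log2 ratio −2.00), and in KO-con it was at 23.5% of WT-con.

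Promoter sequences are shown for 3 genes, Plaur, F3 and Serpinb2, which are also the genes whose windows held any of the motifs searched. Plaur and F3 had KO over WT ratios above 0 in both states, as had F7 and F10, whose windows are not shown. Serpinb2 had ratios below 0 in both. F3 and Serpinb2 were also higher by over 2-fold after stimulation in both genotypes. The RefSeq table (GRCm38.p6) held a promoter for 6 of the 9 genes, 250 bases before to 50 after the annotated start. Plau, Plat and Thbd were not among them. Capitals mark AP-1 type motifs (TGANTCA), GC boxes (GGGCGG) and TATA boxes (TATAAA), each searched on both strands. An NF-kB type motif (GGGA, any base, TTTCC) was searched as well, and no exact match was in these windows. Stretches that differ from these letters were not searched. The F3 window holds such a stretch, cggagtttcc, which differs from the NF-kB type motif only in its first base.
Plaur, plus strand, chr7:24462233-24462532: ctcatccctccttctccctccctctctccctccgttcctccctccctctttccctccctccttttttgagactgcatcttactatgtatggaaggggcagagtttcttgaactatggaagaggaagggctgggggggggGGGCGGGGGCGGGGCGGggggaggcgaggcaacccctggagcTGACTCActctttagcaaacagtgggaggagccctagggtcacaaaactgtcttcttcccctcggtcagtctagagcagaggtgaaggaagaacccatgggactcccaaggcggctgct
F3, plus strand, chr3:121723287-121723586: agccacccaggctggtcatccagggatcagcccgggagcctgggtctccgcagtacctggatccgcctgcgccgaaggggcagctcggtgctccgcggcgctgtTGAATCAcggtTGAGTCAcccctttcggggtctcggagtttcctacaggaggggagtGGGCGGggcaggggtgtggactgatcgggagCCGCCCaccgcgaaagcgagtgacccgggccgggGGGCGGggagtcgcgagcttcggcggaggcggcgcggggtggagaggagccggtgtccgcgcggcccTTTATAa
Serpinb2, plus strand, chr1:107511173-107511472: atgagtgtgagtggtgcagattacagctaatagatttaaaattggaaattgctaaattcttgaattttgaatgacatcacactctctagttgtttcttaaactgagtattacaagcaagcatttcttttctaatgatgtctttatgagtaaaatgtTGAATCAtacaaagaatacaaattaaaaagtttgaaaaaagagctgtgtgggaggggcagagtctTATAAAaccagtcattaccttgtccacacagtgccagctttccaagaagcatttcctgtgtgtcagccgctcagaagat

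The F3 window held 2 AP-1 type motifs, at 146 and 135 bases before the start, with no overlap between them, and 3 GC boxes. It also held 1 match to the TATA box, 43 bases after the start. That match and 1 of the GC boxes read on the minus strand, opposite to the gene. The Plaur window held 1 AP-1 type motif, 69 bases before the start, and 3 GC boxes. In the Serpinb2 window shown there was 1 AP-1 type motif, 94 bases before the start, and 1 TATA box, 29 bases before it. RefSeq also annotates another start of Serpinb2, whose window is not shown. Relative to that start the same AP-1 type motif lay at −181 and the same TATA box at −116. Of 32851 mouse promoter windows of this length, 7.81% held the AP-1 type motif, 35.7% a GC box, 13.6% a TATA box and 0.411% the NF-kB type motif. The windows of F7, F10 and F13a1 held none of the 4 motifs searched. A match of letters is not a bound site, and no binding was measured here.

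In KO libraries Plau and Plaur were higher and Serpinb2 was lower than in WT libraries, after IFN-gamma and LPS and without them, and all 3 were past the adjusted p in both states. All of these differences were under 1.5-fold. The table of stimulated cells had 5.36% of all genes past the adjusted p and higher, and 6.54% lower; without stimulation the shares were 4.70% and 4.27%.

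Plau (chromosome 14, 20836660 to 20843385, plus strand, GRCm38) had 109.8 RPM in KO-I+L, against 77.6 in WT-I+L. Without stimulation it had 233 RPM in KO-con, against 159 in WT-con. The KO library was the higher of the pair in each state, and both unstimulated libraries were above both stimulated ones. The ratio was 0.50 ± 0.035 (1.42-fold) in stimulated and 0.55 ± 0.025 (1.47-fold) in unstimulated cells. Among genes whose counting error did not exceed the one that 50 reads per library give, Plau ranked 142 from the highest of 11096 in stimulated and 120 of 11226 in unstimulated cells. The authors' deposited table marks Plau as differentially expressed in unstimulated cells, at a log2 ratio of 0.74 there, and the authors' deposited table of stimulated cells leaves it unmarked, at 0.46. Those deposited ratios are of unscaled reads. With the larger KO-con total taken into account, Plau lay below 1.5-fold in unstimulated cells too. The −log10 p of Plau in the unstimulated table was at its highest printed value, so its reads are the smallest whole numbers that give the deposited ratio (9215 in KO-con and 5502 in WT-con). A multiple of this pair would raise both levels and leave the KO over WT ratio as it is. The unstimulated levels of Plau, its quotients to other genes and its place in their order, and the size of its decrease with stimulation are therefore lower limits in this respect.

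Plaur (chromosome 7, 24462484 to 24475968, plus strand) was the member with most reads in all 4 libraries. It had 806 RPM in KO-I+L and 648 in WT-I+L, and 946 in KO-con and 822 in WT-con. Its ratio was 0.31 ± 0.012 in stimulated and 0.20 ± 0.011 in unstimulated cells, and KO was higher in both. Relative to its receptor, urokinase transcript also stood higher in KO: there were 0.136 Plau reads per Plaur read in KO-I+L against 0.120 in WT-I+L, and 0.246 in KO-con against 0.193 in WT-con. Such a ratio of reads within a library does not depend on how libraries are scaled.

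Serpinb2 (chromosome 1, 107511423 to 107535478, plus strand) ran the other way. Its level was 309 RPM in KO-I+L, against 379 in WT-I+L, and 62.0 in KO-con, against 89.6 in WT-con. The ratio was −0.29 ± 0.018 in stimulated and −0.53 ± 0.039 in unstimulated cells. Serpinb10 overlaps Serpinb2 on the same strand in the GENCODE M21 annotation, so reads in the shared stretch could have been left out or split by the counting. Set against its inhibitor, Plau stood at 0.355 reads per Serpinb2 read in KO-I+L, against 0.205 in WT-I+L. Without stimulation the same quotient was 3.76 in KO-con, against 1.77 in WT-con. The quotient was 1.74 times as high in KO-I+L as in WT-I+L (log2 0.80 ± 0.039) and 2.12 times as high in KO-con as in WT-con (log2 1.09 ± 0.046). These quotients were chosen after the values were seen.

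Plat (chromosome 8, 22757727 to 22782844, plus strand), the second activator, had few reads next to Plau. It had 11.2 RPM in KO-I+L and 13.9 in WT-I+L, from 411 and 526 reads. In unstimulated cells it had 2.88 RPM in KO-con and 2.66 in WT-con, from 114 and 92 reads. The ratio was −0.32 ± 0.095 in stimulated cells, where the Benjamini-Hochberg adjusted value of the authors' p was 0.00498, and 0.12 ± 0.20 in unstimulated cells; neither passed the threshold of 0.001.

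**Figure D1:**
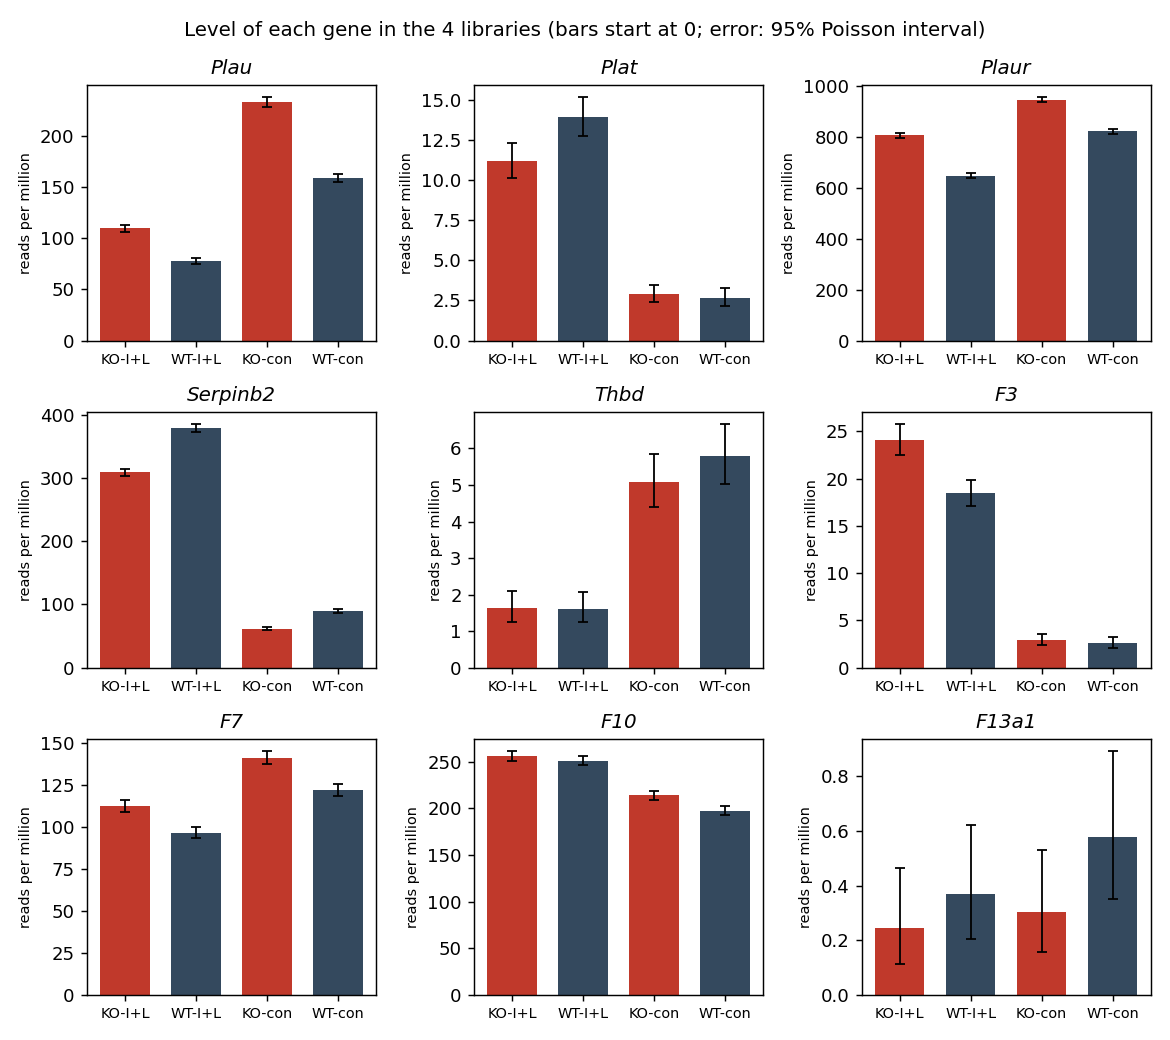
Level of each of the 9 genes in RPM (vertical axes, from 0, a scale of its own per gene) in KO-I+L, WT-I+L, KO-con and WT-con, with KO in red and WT in dark blue. Each bar is 1 library, and its error bar is the 95% Poisson interval of the reads. Plau and Thbd are lower and Serpinb2, F3 and Plat higher in the stimulated pair, in both genotypes.

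The initiating coagulation genes were higher in KO where they differed past the threshold. F3 (chromosome 3, 121723537 to 121735048, plus strand) had 24.1 RPM in KO-I+L, against 18.5 in WT-I+L. In unstimulated cells it was low in both genotypes, with 2.96 RPM in KO-con and 2.63 in WT-con (117 and 91 reads). The ratio was 0.39 ± 0.073 (1.31-fold) in stimulated cells, past the adjusted p, and 0.17 ± 0.20 in unstimulated cells, not past it. The 95% counting interval in unstimulated cells, from −0.22 to 0.57, includes the ratio seen in stimulated cells.

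F7 and F10 lie next to each other on chromosome 8 (13026034 to 13035809 and 13037308 to 13056676, both on the plus strand), with 1498 bases between them. F7 had 113 RPM in KO-I+L and 96.7 in WT-I+L, and 141 in KO-con and 122 in WT-con. Its ratio of 0.22 ± 0.033 in stimulated and 0.21 ± 0.029 in unstimulated cells (1.16-fold in each) was past the adjusted p in both. F10 had 256 RPM in KO-I+L and 251 in WT-I+L, and 214 in KO-con and 197 in WT-con. For F10 the ratio was 0.03 ± 0.021 in stimulated cells, not past the adjusted p, and 0.12 ± 0.023 in unstimulated cells, past it. The KO library was the higher one for both genes in both states.

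Thbd and F13a1 had few reads. Thbd (chromosome 2, 148404466 to 148408188, minus strand) had 60 reads in KO-I+L and 61 in WT-I+L, and 201 reads in each of KO-con and WT-con. In RPM these were 1.63 and 1.62, and 5.08 and 5.80. The ratios, 0.01 ± 0.26 in stimulated and −0.19 ± 0.14 in unstimulated cells, were not past the adjusted p; their 95% counting intervals reached from −0.50 to 0.53 and from −0.47 to 0.09. F13a1 (chromosome 13, 36867178 to 37050244, minus strand) had 9 reads in KO-I+L, 14 in WT-I+L, 12 in KO-con and 20 in WT-con. It was the lowest member in all 4 libraries, and its ratios of −0.60 ± 0.62 and −0.93 ± 0.53 were not past the adjusted p.

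In each state 5 of the 9 members were past the adjusted p, 4 higher and 1 lower in KO. After IFN-gamma and LPS the 4 were Plau, Plaur, F3 and F7, and without stimulation they were Plau, Plaur, F7 and F10. Serpinb2 was the lower one both times. The shares of all genes past the adjusted p were 5.36% higher and 6.54% lower in stimulated cells, and 4.70% and 4.27% in unstimulated cells. In either state, 0 of 9 members were both past the adjusted p and different by at least 1.5-fold; F13a1 exceeded that fold on its few reads and was not past the adjusted p. Of all genes, 0.425% were past the adjusted p and at least 1.5-fold higher in KO-I+L than in WT-I+L, and 0.594% were lower. In unstimulated cells these shares were 0.409% and 0.299%. The median ratio over the 9 members was 0.03 in stimulated and 0.12 in unstimulated cells, and over all genes it was 0.01 and 0.00. That limit on the counting error was met by 8 of the 9 members in each state, all but F13a1.

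**Figure D2:**
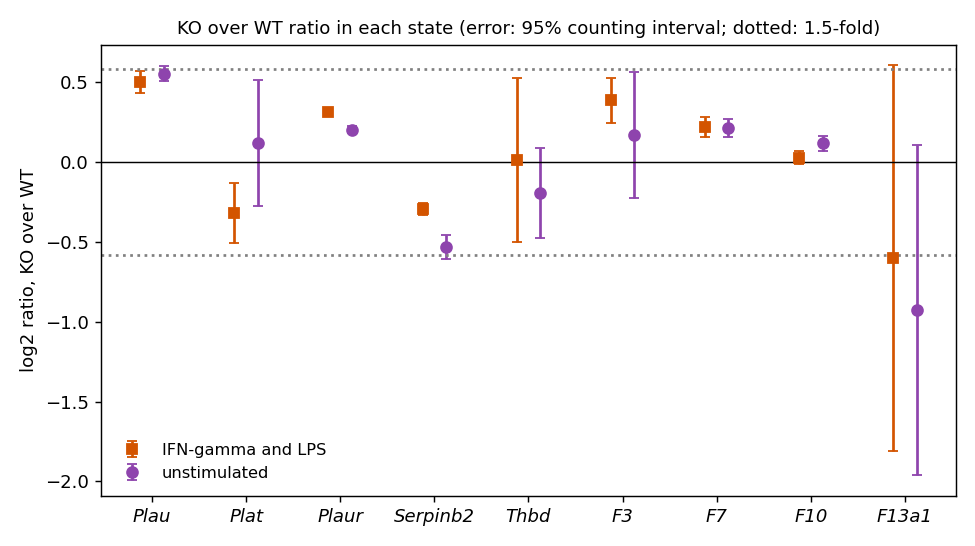
Log2 ratio of KO over WT (vertical axis) for the 9 genes after IFN-gamma and LPS (squares) and in unstimulated cells (circles), with 95% counting intervals and dotted lines at 1.5-fold. Plau lies just under the upper line in both states at 0.50 and 0.55, Serpinb2 is below 0 in both, and F13a1 has the widest intervals.

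The ratios of the 2 states come from separate pairs of libraries. Of the 9 members, 3 had a difference between the states larger than 2 counting errors, which is a description of these 4 libraries and no test. The share of all genes beyond this limit was not counted, so the number says nothing particular about the members. The ratio was higher in stimulated cells by 0.11 ± 0.017 for Plaur and by 0.24 ± 0.043 for Serpinb2, whose KO deficit was thus smaller there, and it differed by −0.09 ± 0.031 for F10. For Plau the difference was −0.05 ± 0.043. On the unscaled ratios as deposited, the difference of Plaur changes sign, to −0.11, and that of Serpinb2 is 0.01.

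**Figure D3:**
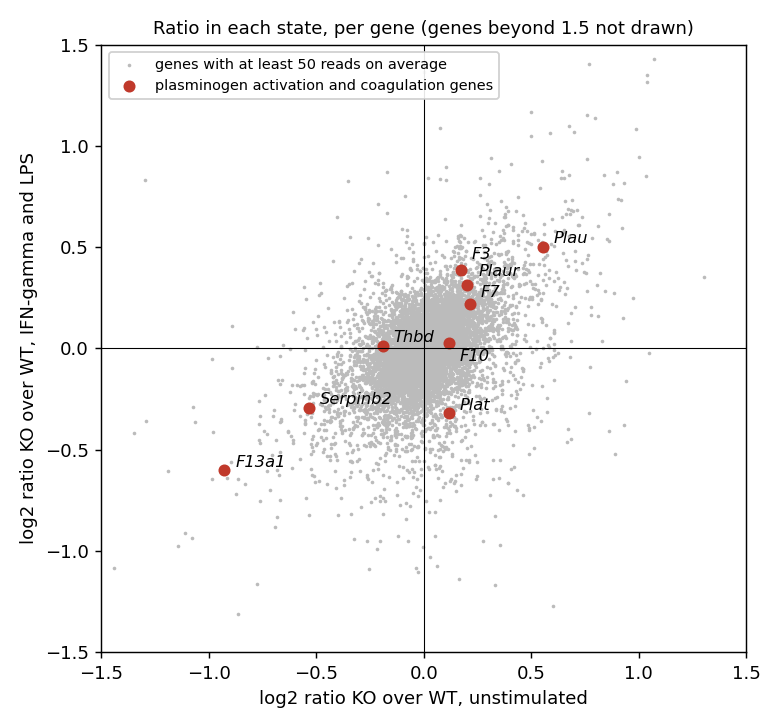
Log2 ratio of KO over WT in unstimulated cells (horizontal axis) against that after IFN-gamma and LPS (vertical axis), 1 point per gene; grey, genes with at least 50 reads on average over the 4 libraries; red, the 9 members. Plau lies at the upper right, at 0.55 and 0.50, Serpinb2 and F13a1 lie at the lower left, and Plat and Thbd are the members whose ratios differ in sign.

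The set was chosen for the KO over WT ratio of Plau and not for any response to stimulation. The members were, however, chosen with earlier results of these data known. The response to stimulation was compared between libraries whose levels come from separate tables, with 1 library on each side, and is given as values. After IFN-gamma and LPS, F3, Serpinb2 and Plat were higher by 2-fold or more in both genotypes, and Plau and Thbd were lower by 2-fold or more. Of the 9 members, 8 had at least 50 reads on average over the 4 libraries, and F13a1 did not. Among the 8, 3 were at least 2-fold higher and 2 at least 2-fold lower in each genotype. Of 11219 genes with as many reads, 2.49% were at least 2-fold higher and 1.62% lower in KO-I+L than in KO-con, and 3.08% and 1.69% in WT-I+L than in WT-con.

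F3 had the largest increase, by 8.15-fold in KO cells (log2 3.03 ± 0.14) and 7.03-fold in WT cells (2.81 ± 0.16). Serpinb2 was 4.99-fold higher in stimulated than in unstimulated KO cells (2.32 ± 0.032), and 4.23-fold higher in WT cells (2.08 ± 0.029). The increase of Plat was 3.88-fold in KO (1.96 ± 0.15) and 5.25-fold in WT cells (2.39 ± 0.16). These 3 genes lay above the 99th percentile of the 11219 genes in both genotypes: F3 at 99.8 and 99.7, Serpinb2 at 99.6 and 99.3 and Plat at 99.3 and 99.5, in KO and in WT cells.

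Plau was 2.12-fold lower in stimulated than in unstimulated KO cells (log2 −1.09 ± 0.027), and 2.05-fold lower in WT cells (−1.03 ± 0.033). Thbd was 3.11-fold lower in KO (−1.64 ± 0.21) and 3.59-fold lower in WT cells (−1.84 ± 0.21). Between them stand the receptor and the factors of the cascade, all within 1.3-fold. Plaur was at −0.23 ± 0.011 in KO and −0.34 ± 0.013 in WT cells, F7 at −0.33 ± 0.030 and −0.33 ± 0.033, and F10 at 0.26 ± 0.022 and 0.35 ± 0.023. The median gene of this comparison lay at −0.15 in both genotypes. Centred on it, Plau was at −0.94 in KO and −0.88 in WT cells, under 2-fold in both. These decreases rest on the smallest unstimulated reads that the capped p allows, and larger multiples would make them larger.

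**Figure D4:**
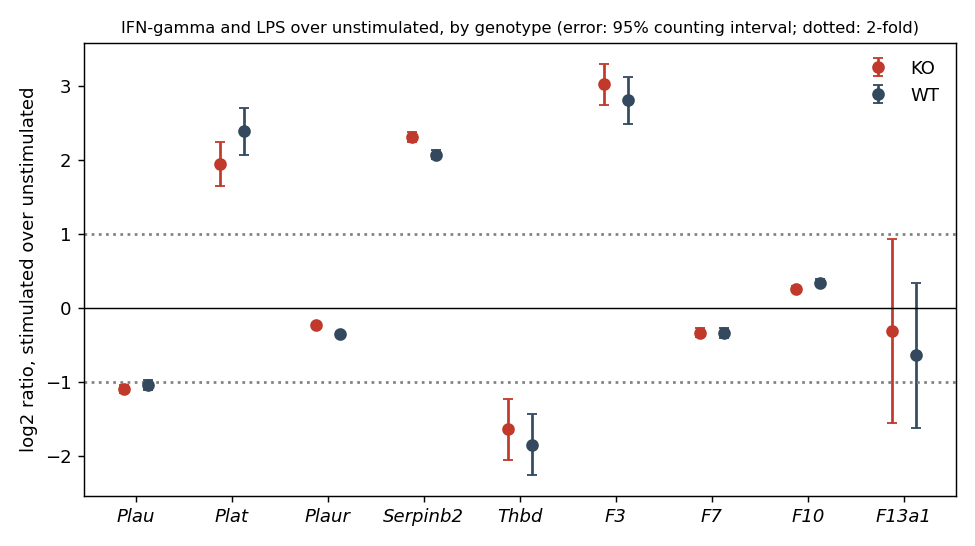
Log2 ratio of stimulated over unstimulated cells (vertical axis) for the 9 genes, in KO (red) and WT (dark blue), with 95% counting intervals and dotted lines at 2-fold. F3, Serpinb2 and Plat lie above the upper line and Thbd and Plau below the lower one in both genotypes, while Plaur, F7 and F10 lie between the lines.

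The order of the members' levels per length, as RPM per kilobase of annotated exon, shifted with the state. Plaur stood highest in every library, at 308 in KO-I+L and 248 in WT-I+L, and at 361 in KO-con and 314 in WT-con. In stimulated cells Serpinb2 came second, at 132 in KO-I+L and 161 in WT-I+L, followed by F10, F7 and Plau in both genotypes. Unstimulated KO cells had Plau second, at 98.4, then F10 at 78.3 and F7 at 76.1. Unstimulated WT cells had F10 second, at 72.2, then Plau at 67.1 and F7 at 65.6. The neighbours F10 and F7 in KO-con and Plau and F7 in WT-con were within 2 counting errors of each other. Serpinb2 came after these in both, at 26.4 in KO-con and 38.2 in WT-con. F3, Thbd and Plat followed at under 10 in every library, and F13a1 came last at under 0.1. Thbd and F3 were also within 2 counting errors in KO-con.

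By Euclidean distance over the 2 ratios, the genes closest to Plau among 10971 genes with sufficient reads were Dab2ip, Id1, Bmyc, Nipal1 and Adra2a. Their ratios lay between 0.46 and 0.53 in stimulated and between 0.53 and 0.59 in unstimulated cells. All 5 had fewer reads than Plau, with the highest level, that of Bmyc, at 15.4 RPM in KO-I+L and 24.1 in KO-con. Likeness over 2 values is a weak criterion and says nothing about a shared function. The protein-coding neighbours of Plau on chromosome 14, Camk2g and Vcl, had ratios of 0.18 and −0.07 in stimulated and of 0.23 and 0.10 in unstimulated cells, both below that of Plau.

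The rest of both systems was read from 6 lists with 52 genes in all, of which 37 had a row in the stimulated and 36 in the unstimulated table. Past the adjusted p were 5 higher and 3 lower in stimulated cells, and 6 higher and 2 lower in unstimulated cells, beside 5.36% of all genes higher and 6.54% lower in stimulated, and 4.70% and 4.27% in unstimulated cells. Genes both past the adjusted p and different by at least 1.5-fold numbered 0 in either direction and state, and the median ratio was 0.10 in stimulated and 0.08 in unstimulated cells. Among the listed inhibitors, Serpine2, which encodes protease nexin 1, was higher in KO. It had 99.9 RPM in KO-I+L against 85.5 in WT-I+L, a ratio of 0.22 ± 0.035, and 94.6 in KO-con against 79.0 in WT-con, a ratio of 0.26 ± 0.036. It was past the adjusted p in both states, and no other listed inhibitor of the 6 and 5 with a row was. Of those with sufficient reads, the lowest was Serpini1, which encodes neuroserpin, at 0.04 ± 0.21 in stimulated and −0.44 ± 0.19 in unstimulated cells.

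Genes for plasminogen binding at the cell surface differed by small amounts. S100a10 and Anxa2, which together encode the annexin A2 heterotetramer, a plasminogen receptor, were past the adjusted p in both states. S100a10 was at 0.24 ± 0.020 in stimulated and 0.19 ± 0.019 in unstimulated cells, and Anxa2 at 0.12 ± 0.011 and 0.11 ± 0.011. Itgam, the integrin chain of Mac-1, was past it as well, at 0.09 ± 0.016 and 0.08 ± 0.013, and its partner Itgb2 was at 0.00 ± 0.011 and −0.01 ± 0.010. Lrp1, an endocytic receptor that clears complexes of urokinase with its inhibitor, was past the adjusted p in opposite directions, at −0.05 ± 0.011 in stimulated and 0.20 ± 0.010 in unstimulated cells. Plg and Vtn had no row in either table.

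Of the 14 listed genes of the coagulation cascade and clot, 6 had a row in each table, and Vwf was the only one past the adjusted p, at −0.28 ± 0.064 in stimulated and −0.27 ± 0.052 in unstimulated cells. F5 had 27 reads in KO-I+L and 42 in WT-I+L, and 61 in KO-con and 59 in WT-con. The anticoagulant list held the gene with most reads of all 6 lists, Procr, which encodes the receptor that presents protein C to thrombomodulin. Procr had 3289 RPM in KO-I+L against 2983 in WT-I+L (0.14 ± 0.0060), and 2634 in KO-con against 2483 in WT-con (0.09 ± 0.0066). Anxa5 was lower, at −0.06 ± 0.015 and −0.12 ± 0.017, and both genes were past the adjusted p in both states. Tfpi, the inhibitor of tissue factor with factor VII, was at 0.22 ± 0.13 and 0.25 ± 0.13, and Pros1, the protein C cofactor, at 0.26 ± 0.21 and 0.22 ± 0.20; neither was past the adjusted p. None of the protease-activated receptor genes (3 with a row in stimulated and 4 in unstimulated cells) was past it; F2rl2, the member with most reads, was at 0.18 ± 0.19 and −0.23 ± 0.13. Likewise 0 of 5 genes of the vitamin K cycle and factor transport were past it in either state, with Vkorc1 highest at 0.29 ± 0.11 in stimulated and Lman1 highest at 0.03 ± 0.034 in unstimulated cells. Ggcx was lowest in both, at −0.11 ± 0.13 and −0.08 ± 0.12.

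**Figure D5:**
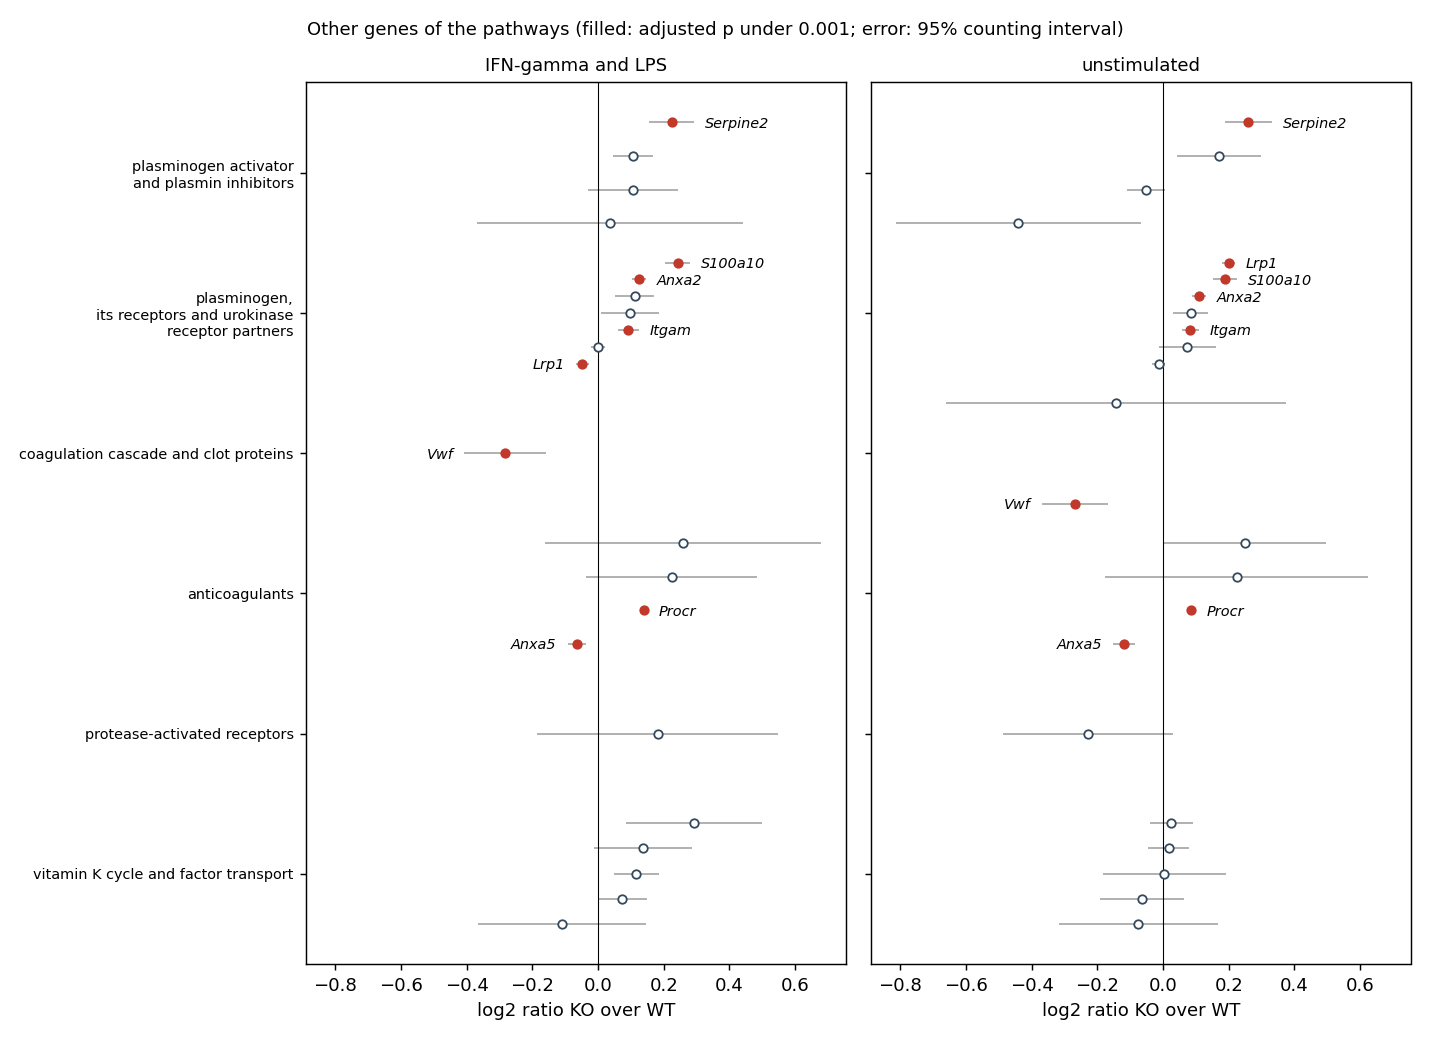
Log2 ratio of KO over WT (horizontal axis) for the other genes of both systems, by list, after IFN-gamma and LPS (left) and in unstimulated cells (right). Only genes within the limit on the counting error that 50 reads per library give are drawn, with 95% counting intervals; filled points, with names, were past the adjusted p of 0.001. Serpine2, S100a10, Anxa2, Itgam and Procr lie above 0 and Vwf and Anxa5 below 0 in both states.

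Markers of the labelled cell type were present, with 9 of 10 listed dendritic cell markers in each table; Cd209a had no row. Past the adjusted p were 4 of the 9 in each state, all higher in KO, and 0 lower: Itgax, Cd74, H2-Ab1 and Batf3. Of all genes, 5.36% were past it and higher and 6.54% lower in stimulated cells, and 4.70% and 4.27% in unstimulated cells. Batf3, a transcription factor of conventional dendritic cells, had 79.7 RPM in KO-I+L against 53.7 in WT-I+L (0.57 ± 0.042), and 86.1 in KO-con against 60.2 in WT-con (0.51 ± 0.040), ratios close in size to those of Plau. Itgax, which encodes CD11c, was at 0.29 ± 0.017 in stimulated and 0.32 ± 0.015 in unstimulated cells, and Cd74 at 0.08 ± 0.0057 and 0.04 ± 0.0058. The summed level of the list was 5205 RPM in KO-I+L against 4834 in WT-I+L, and 5072 in KO-con against 4783 in WT-con. In unstimulated cells the −log10 p of Itgax was at its highest printed value, as for Plau. Its reads there are the smallest whole numbers that give the deposited ratio, so the KO-con and WT-con sums are lower limits in this respect.

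Some fibroblast markers were higher in the KO libraries as well. All 11 had a row in both tables. Past the adjusted p were 6 higher and 1 lower in stimulated cells, 5 and 1 of them by at least 1.5-fold. In unstimulated cells 4 were higher and 0 lower, 3 of them by at least 1.5-fold. Of all genes, 5.36% were past it and higher and 6.54% lower in stimulated cells, and 4.70% and 4.27% in unstimulated cells. At 1.5-fold or more these shares were 0.425% and 0.594%, and 0.409% and 0.299%. The summed level was 117 RPM in KO-I+L against 73.8 in WT-I+L, and 95.4 in KO-con against 70.3 in WT-con. Most of it was Thy1, which other cell types also express, with 68.6 RPM in KO-I+L against 51.5 in WT-I+L, and 73.0 in KO-con against 55.2 in WT-con. The collagen gene Col1a1 had 9.98 RPM in KO-I+L against 0.875 in WT-I+L. In unstimulated cells it had 2.17 RPM in KO-con against 1.41 in WT-con and was not past the threshold (Benjamini-Hochberg adjusted value of the authors' p 0.072). Col3a1 had 226 reads in KO-I+L against 3 in WT-I+L, and 38 in KO-con against 4 in WT-con. Col1a2 was at 2.77 ± 0.25 in stimulated and 1.36 ± 0.32 in unstimulated cells, and Fbln2 at 1.84 ± 0.31 and 2.01 ± 0.30. Sparc was at 1.99 ± 0.22 and, not past the adjusted p, 0.86 ± 0.26. Pdgfrb was below 0 in both states, at −0.74 ± 0.15 and −0.19 ± 0.20. Lum was below 0 as well, at −0.55 ± 0.66 and −0.19 ± 0.77, with 8 reads in KO-I+L and 12 in WT-I+L. Dcn, with 419 reads in KO-I+L and 382 in WT-I+L, was at 0.17 ± 0.10 in stimulated and 0.20 ± 0.13 in unstimulated cells. Pdgfra was at 0.53 ± 0.46 and 0.52 ± 0.37, and Postn at 1.28 ± 0.39 and 0.25 ± 0.51. None of Dcn, Pdgfra and Postn was past the adjusted p in either state.

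Of the macrophage and monocyte list, 10 of 11 markers had a row. Past the adjusted p were 4 higher and 1 lower in stimulated cells and 5 higher and 1 lower in unstimulated cells. Of the higher ones, 2 and 3 were at least 1.5-fold: C1qb and C1qc in both states and Fcgr1 in unstimulated cells. Among all genes in stimulated cells, 5.36% were past the adjusted p and higher and 6.54% lower. At 1.5-fold or more these shares were 0.425% and 0.594%. Unstimulated cells had 4.70% and 4.27%, and at this fold 0.409% and 0.299%. C1qb had 7.04 RPM in KO-I+L against 3.66 in WT-I+L, and 7.33 in KO-con against 3.67 in WT-con. C1qc was at 0.65 ± 0.15 in stimulated and 0.74 ± 0.15 in unstimulated cells. Fcgr1 was at 0.27 ± 0.051 and 0.66 ± 0.046. Cd68 was higher in both states, at 0.18 ± 0.018 and 0.12 ± 0.017. Mrc1 was past it in unstimulated cells only, at 0.48 ± 0.085. The lower one was Csf1r, the receptor of the macrophage growth factor CSF-1, with 407 RPM in KO-I+L against 450.3 in WT-I+L (−0.15 ± 0.016), and 480.4 in KO-con against 578 in WT-con (−0.27 ± 0.015). The list summed to 879 RPM in KO-I+L against 865 in WT-I+L, and to 1018 in KO-con against 1045 in WT-con. Csf1r and Cd68 had the highest levels of this list in every library. The endothelial list, which also holds Vwf, summed to 87.8 RPM in KO-I+L against 95.3 in WT-I+L, and to 124 in KO-con against 126 in WT-con. Megakaryocyte and platelet markers summed to 52.4 RPM in KO-I+L against 42.1 in WT-I+L, and to 65.7 in KO-con against 61.3 in WT-con. Most of this was Pf4, with 47.8 RPM in KO-I+L and 37.4 in WT-I+L, and 59.4 in KO-con and 54.3 in WT-con. Neutrophil markers summed to 347 RPM in KO-I+L against 395 in WT-I+L, and to 251 in KO-con against 316 in WT-con. Lcn2 made up most of that sum, with 280 RPM in KO-I+L and 330 in WT-I+L, and 164 in KO-con and 212 in WT-con. Mpo had 4 reads in KO-I+L and 11 in WT-I+L, and Ly6g and Elane had no row. Mast cell and basophil markers summed to 327 RPM in KO-I+L against 361 in WT-I+L, and to 123 in KO-con against 149 in WT-con. Nearly all of it was Hdc, with 320 RPM in KO-I+L and 353 in WT-I+L, and 112 in KO-con and 136 in WT-con. Cpa3 had 4 reads in each unstimulated library. Past the adjusted p in stimulated cells were Pf4, higher in KO, and Kdr, Vwf, Lcn2 and Hdc, lower. In unstimulated cells they were Vwf, Mmp8, Lcn2 and Hdc, all lower in KO. In each of these 4 lists 0 genes were both past the adjusted p and different by at least 1.5-fold. The part of these cell types in the ratios of Plau, Plaur and Serpinb2 was not tested, and in bulk libraries fewer cells of a type and less RNA per cell cannot be told apart.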

How the data were processed

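For each state the authors deposited a table of KO against WT. It holds, per the file headers, a log2 fold change per gene and a p-value; from the values, the deposited p is −log10 p, capped at 100 (unstimulated) and 150 (stimulated). FastQC 0.10.1, HTSeq 0.6.0 and build mm10 are named, per the submitters' processing notes; the labels' protocols name a strand-specific TruSeq mRNA preparation. None of the sources used here names the aligner, annotation or test. From the values, each log2 ratio is that of 2 whole read counts, unscaled, and each p is the normal p of this ratio around the log2 ratio of the library totals, with the sampling variance of 2 read counts. This reading is an own derivation. It fixed the zero point (0.191 in unstimulated, −0.036 in stimulated cells), the totals and, of the genes below the cap, the reads of 99.9% in each table as whole pairs that give the deposited ratio within 1e-09; 99.7% of the genes in each table came out within 0.05 of a whole read in both libraries. A library at 0 reads had been entered as 0.5. The recovered reads sum to between 94.4% and 95.4% of the totals.

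Each log2 ratio was reduced by the zero point. Calls needed at least 1.5-fold and an adjusted p (Benjamini-Hochberg, over each table) under 0.001; with 1 library per group there is no test of the conditions, and intervals cover counting error only. All 9 members were named, with the genes of each pathway list past the adjusted p or at its ends. Of the cell type marker lists the genes past the adjusted p were named, and only some of the others. The inhibitor list leaves out 1 gene that is not reported here. The members and lists were chosen with earlier results of these data known. Alternatives were the ratios as deposited or centred on the median gene, another p threshold, fold or read minimum and, added after seeing the data, an exact binomial p on the recovered reads. Positions and exon lengths came from GENCODE M21 (GRCm38). The procedure was tested on simulated data. Python 3.11.15, SciPy 1.17.1 and pandas 2.3.3 were used.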

Additional observations from a re-analysis of the deposited data

Results flagged for a closer look

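Of the 9 members, Plat and Thbd had KO over WT ratios of opposite sign after stimulation and without it, and with 1 library behind each value the difference was not tested. Plat was at −0.32 in stimulated and 0.12 in unstimulated cells, and its difference between states was −0.44 ± 0.22. Thbd was at 0.012 in stimulated and −0.19 in unstimulated cells. Among the listed pathway genes within the limit on the counting error in both states, the sign differed for 6 more, untested as well. Lrp1, the clearance receptor, was at −0.047 in stimulated and 0.20 in unstimulated cells and was past the adjusted p in both. It had 983 RPM in KO-I+L against 1016 in WT-I+L, and 1313 in KO-con against 1144 in WT-con. The other genes were past the adjusted p in neither state. Serpini1 was at 0.036 in stimulated and −0.44 in unstimulated cells, Serpinb6a at 0.11 and −0.052, and Itgb2 at 0.00024 and −0.014. F2rl2 was at 0.18 in stimulated and −0.23 in unstimulated cells, and Vkorc1l1 at 0.14 and −0.064. Genes with fewer reads were not included.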

How the results depend on the processing

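No paired analysis was possible because each group is 1 library, and no replicate could be left out. The ratios as deposited are not scaled for depth: they put the median gene at 0.19 in unstimulated cells, Plau at 0.74 there, past 1.5-fold, its difference between states at −0.28, and whole-table calls at 140 higher and 22 lower in unstimulated cells. Thbd then lay at 0 in unstimulated cells. In stimulated cells Thbd lay at −0.024 and F10 at −0.0087, each with the other sign, and the state difference of Plaur (−0.11) changed sign too. With the threshold on the adjusted p at 0.05, calls came to 178 higher and 101 lower in unstimulated and 156 and 178 in stimulated cells, and 1 listed pathway gene, F2r, was called higher in stimulated cells; Plat in stimulated cells was past this threshold. At 2-fold, 14 and 13, and 35 and 23 were called. With no minimum fold, 723 and 657, and 821 and 1001 were called, and of the pathway genes 6 and 2, and 5 and 3. Centring the KO over WT ratios on the median gene, the 50-read limit and the exact binomial p changed no member's call. Few reads limit F13a1 in both states, Thbd in stimulated cells, and Plat and F3 in unstimulated cells.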
